A study of Mus musculus with 60 samples.

Results

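Of the 60 libraries of the series, 6 set wild-type (WT) mouse fibroblasts on day 2 of reprogramming with VC, a pair of small molecules, against the same cells without it, and were chosen by their sample labels alone. In 3 libraries the cells had doxycycline for 2 days, and in 3 doxycycline and VC for 2 days. The study asked whether a short pulse of reprogramming reduces DNA damage in cells that lack normal Ercc1, and VC served to speed that reprogramming up. Both groups were tail tip fibroblasts of a female, 22 weeks old, of a line labelled 4FJ_(+/-)_OCT4-GFP. They carry a doxycycline-inducible Oct4, Klf4, Sox2 and Myc cassette in the Col1a1 locus and an Oct4-GFP reporter. The paper names the M2-rtTA transactivator at ROSA26 for its Ercc1 model, and does not name it for the reporter line. Both groups are of the same line, so the cells without VC carry every allele that the cells with VC carry. All 6 libraries had doxycycline at 2 µg/ml in low oxygen, and the VC cells also had ascorbic acid (vitamin C) at 50 µg/ml and CHIR-99021, an inhibitor of the kinase GSK3, at 3 µM. The same contrast in WT cells at day 0 (no doxycycline) and day 4, and at day 2 in the Ercc1-deficient D/KO cells (line 4FJ_ERCC1_(d/-), male, 8 weeks old, Ercc1 truncated on 1 allele and deleted on the other), each with 3 libraries per group of its own, served for comparison. Genotype, sex, age and reporter change together between the WT and D/KO lines and cannot be told apart.

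GSK3 phosphorylates beta-catenin and marks it for destruction, so its inhibition lets beta-catenin enter the nucleus with TCF and LEF factors and switch on Wnt target genes, many of which encode feedback inhibitors of the pathway. Ascorbic acid keeps the iron of dioxygenases reduced, a family that includes the collagen prolyl and lysyl hydroxylases, the HIF prolyl hydroxylases, the Tet enzymes and the JmjC histone demethylases. In fibroblasts that begin reprogramming, mesenchymal genes are usually lost and epithelial genes gained before the pluripotency network is active.

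Library totals in the reprogramming table ran from 16538374 to 18484951 counts, and the 6 libraries held between 17064388 and 18484951. Expression is given as CPM, a gene's counts relative to the TMM-scaled library size, the differences as log2 fold changes (VC over no VC) ± SE, and the adjusted p-values are those of edgeR's two-sided quasi-likelihood test with Benjamini-Hochberg adjustment over the 15832 genes tested, with a call at 0.05. Nothing in the labels says that the 3 libraries of a group came from separate cultures or animals, so the p-values measure only a spread between libraries, which may be technical. That spread was estimated over all 36 libraries of the fit, not over these 6 alone. A fit of the groups compared alone called 3325 genes in place of 4205. In bulk RNA, fewer cells of a type and less RNA per cell cannot be told apart. VC raised 2139 genes and lowered 2066, which is 26.6% of the genes tested (13.5% higher and 13.0% lower), of which 479 and 717 changed at least 2-fold. The median over all tested genes was 0.00 (log2). On a principal component analysis of the 18 WT libraries, the first component (52.2% of variance) placed the day 2 libraries between -1.2 and 0.72, the day 2 VC libraries between 17.9 and 20, the day 4 libraries without VC between 16.2 and 17.2 and the day 4 VC libraries between 37.6 and 38.5. The second (24.4%) put every WT library with VC below every WT library without it.

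**Figure D1:**
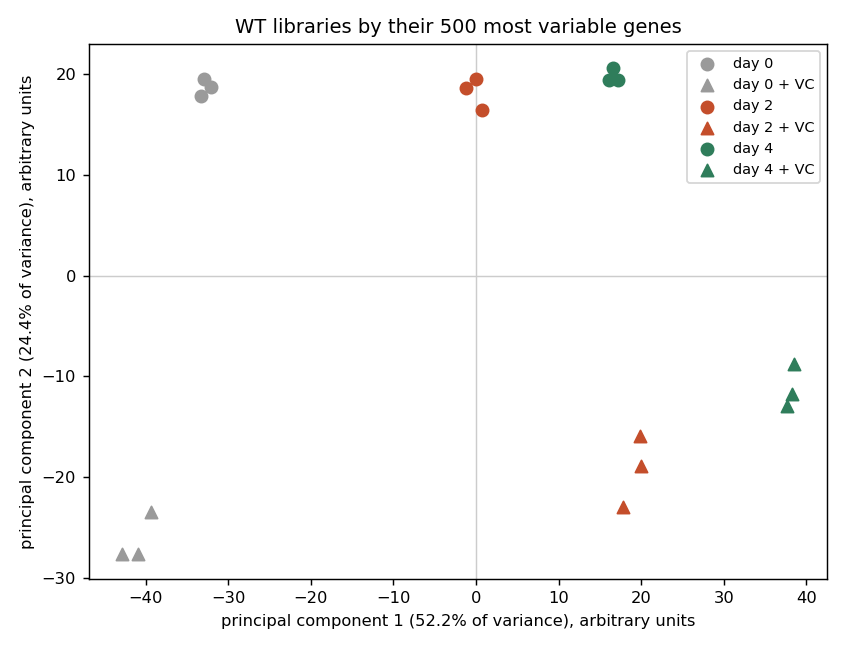
The first 2 principal components (percent of variance on each axis) of the 500 most variable genes in the 18 WT libraries, 1 point per library, with colour for the day and shape for VC. The 3 day 2 VC libraries lie at 17.9 to 20 on the first component, next to the day 4 libraries without VC at 16.2 to 17.2, while the second component separates the libraries with VC from those without.

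One library stood apart in Pou5f1 and Sox2, genes of the cassette. In day 2 replicate 2, Pou5f1 (Oct4) was at 12.5 CPM, against 41.5 and 48.8 in the other two day 2 libraries and 40, 51.9 and 55 with VC. Sox2 was at 25.3 CPM there, against 57.8 and 59.8, and 56.5, 71.5 and 67.3 with VC. Klf4 (229, 175 and 178 CPM, and 149, 175 and 175 CPM with VC) and Myc (138, 130 and 138 CPM, and 162, 172 and 159 CPM with VC) did not set that library apart. Counts of these genes cannot be split into transcripts of the cassette and of the native gene. None of the 4 factors passed the test, a result that depended on the setting: Myc passed with DESeq2 or with the 18 WT libraries alone, and Pou5f1 and Sox2 with no filter on low counts. The log2 difference was 0.52 ± 0.25 for Pou5f1 (adjusted p = 0.135), 0.45 ± 0.21 for Sox2 (adjusted p = 0.118), -0.22 ± 0.18 for Klf4 (adjusted p = 0.401) and 0.28 ± 0.11 for Myc (adjusted p = 0.0501). Without day 2 replicate 2 it was 0.122 for Pou5f1 and 0.152 for Sox2, and without day 2 replicate 3, which leaves the low library more weight, 0.859 and 0.646, both then past the threshold. Of the pluripotency genes listed, 14, among them Nanog, Esrrb and Sall4, were too low to test (at most 0.307 CPM in any of the 6 libraries). Of the 7 tested, 1 passed the test, Klf2, a Krüppel-like factor of naive pluripotency, and Alpl also passed, as higher, without day 2 replicate 1 (2.01) or with DESeq2 (1.21). Klf2 was at 44.6, 68 and 68.7 CPM without VC and 11.3, 11.9 and 11.2 CPM with it, and fell by 2.40 ± 0.20 (log2, adjusted p = 1.36e-11). The Oct4-GFP reporter was not analysed here.

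The labelled cell type was checked against its markers. The 16 fibroblast markers summed to 40410 to 52730 CPM without VC and 70310 to 81450 CPM with VC, the highest of them Col1a1, whose locus holds the cassette, and 11 of them rose and 1 fell. Among markers of other cells, 6 keratinocyte genes tested summed to 30 to 33.4 CPM and 51.5 to 54.2 CPM (3 rose, none fell, with the defining Dsg3 at 0 in all 6 libraries). Endothelial markers summed to 61.8 to 66.8 and 94.8 to 102.1 CPM (1 of 6, Tek, rose) and immune markers to 68.4 to 106.5 and 57.3 to 63.6 CPM (2 of 6 tested fell, with the T cell marker Cd3e at 0). Chondrocyte and bone markers, led by Comp, summed to 98.3 to 110.8 and 61.2 to 65.6 CPM (1 of 5 tested rose and 2 fell, with Acan at 0). Melanocyte and Schwann markers summed to 17.4 to 21 and 14.5 to 16.2 CPM (1 fell, with Dct, Tyr and Mlana at 0), adipocyte markers to at most 1.02 CPM (1 fell), and muscle markers were at or near 0. The part of these cells in any result was not tested. Mitochondrial genes took 0.48% to 1.14% of counts without VC and 0.94% to 1.58% with it. Ercc1 itself was at 21.6, 29.1 and 22.2 CPM, and at 17.4, 21.7 and 20.1 CPM with VC, values that overlap (-0.30 ± 0.16, adjusted p = 0.171). Its exons overlap those of Polr1g on the other strand, and the strand setting of the counting is not given.

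Feedback and direct targets of Wnt signalling had the highest median of the 5 lists of that pathway, 0.72 (log2) beside 0.00 over all genes, but did not move as 1. Of 17 tested, 6 rose and 4 fell, beside 13.5% and 13.0% of all genes. Without VC replicate 2 or 3 the median was 0.531 or 0.529. Axin2, a scaffold of the destruction complex and the best known feedback target, (ENSMUSG00000000142, chr11:108811175-108841609 on GRCm39) was at 1.62, 1.39 and 2.2 CPM without VC and 12.2, 12.4 and 9.67 CPM with it. The groups were far apart, a rise of 6.58-fold (2.72 ± 0.27 on the log2 scale, adjusted p = 8.99e-10). Axin2 shares exon sequence with the predicted gene Gm11670 on the other strand. Apcdd1, a membrane inhibitor of Wnt receptors, was at 16.7, 18.2 and 17.2 CPM and at 56.2, 57.9 and 56.6 CPM with VC, with hardly any spread within either group (1.71 ± 0.12, adjusted p = 4.13e-13). Nkd2, which binds Dishevelled, was at 6.57, 5.71 and 6.16 CPM and at 24.4, 24.4 and 23.6 CPM with VC (1.97 ± 0.27, adjusted p = 7.65e-07). Tcf7, a nuclear partner of beta-catenin, went from 2.37, 1.8 and 1.43 CPM to 8.46, 6.32 and 6.69 CPM (1.93 ± 0.29, adjusted p = 3.47e-06). Lgr5, a receptor for R-spondins, and Ccnd1, cyclin D1, rose by 0.95 ± 0.22 and 0.58 ± 0.12 (log2).

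Not every gene of this class moved that way. Nkd1, the close relative of Nkd2, was at 9.32, 6.53 and 8.31 CPM without VC and 3.62, 4.79 and 4.26 CPM with it, lower in every VC library (-0.93 ± 0.27, adjusted p = 0.0091). Dkk2, a secreted antagonist, fell by 0.59 ± 0.13 and Ror2, a Wnt5a receptor, by 0.44 ± 0.12 (log2). Lef1 was at 2.15, 2.16 and 1.81 CPM and at 0.368, 0.99 and 1.16 CPM with VC (-1.27 ± 0.45, adjusted p = 0.031), a call that was lost without day 2 replicate 1 or 2 or VC replicate 1. Sp5 and Dkk1 had no count in any of the 6 libraries. Znrf3 and Rnf43, ligases that remove Wnt receptors, did not pass the test (0.42 ± 0.18 and 0.72 ± 0.51).

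Ligands and their extracellular regulators moved both ways. Of 14 Wnt ligands tested, 2 rose and 3 fell (median -0.49, or -0.20 without day 2 replicate 1), beside 26.6% of all genes called. Wnt2 was at 8.03, 8.99 and 11.3 CPM without VC and 1.04, 1.98 and 2.68 CPM with it (-2.31 ± 0.31, adjusted p = 6.86e-07), and Wnt4 fell by 0.99 ± 0.17. Wnt10a also passed the test (-1.40 ± 0.52, adjusted p = 0.0424), but lost it when any 1 of 5 libraries was left out. Wnt5a, the ligand of non-canonical signalling and the most abundant of those named, went from 145, 114 and 156 CPM to 215, 229 and 228 CPM (0.70 ± 0.10, adjusted p = 3.75e-06). Of 10 secreted antagonists and agonists, 1 rose and 5 fell (median -1.01). Both kinds were among those that fell. Rspo3, an R-spondin that amplifies Wnt signals, was at 41.5, 35.8 and 38.8 CPM and 11.7, 13.9 and 12 CPM with VC (-1.62 ± 0.21, adjusted p = 2.78e-07), and Rspo2 fell by 1.59 ± 0.26. Dkk3 went from 282, 266 and 271 CPM to 134, 141 and 135 CPM (-1.0 ± 0.08, adjusted p = 3.34e-12), and Frzb, a decoy receptor, fell by 1.02 ± 0.25. Among 11 receptors 2 rose and 2 fell, again beside 26.6% of all genes called. Fzd1 and Fzd2 rose by 0.49 ± 0.10 and 0.57 ± 0.11 and Fzd4 fell by 2.09 ± 0.23. Fzd9 also passed, at 0.977 CPM or less, but lost the call without any 1 of 4 libraries, and its difference was -0.806 in place of -2.63 without day 2 replicate 2, where the median of the receptors was -0.08 in place of 0.05.

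Inside the cell, 2 of 23 genes of the destruction complex and its nuclear partners rose and 3 fell (median 0.06), with 4 higher without day 2 replicate 1 and 1 without day 2 replicate 3 or VC replicate 3. These 5 calls of 23 stand beside 26.6% of all genes. Ctnnb1, beta-catenin itself, was at 384, 340 and 392 CPM and 478, 469 and 466 CPM with VC, a rise of 0.34 ± 0.08 (adjusted p = 0.00231). Tle2, a corepressor that binds TCF factors, fell by 1.25 ± 0.18 and Dvl1, a Dishevelled, by 0.53 ± 0.12. Gsk3b and Gsk3a, the target kinases of CHIR-99021, differed by 0.30 ± 0.12 (adjusted p = 0.0665) and 0.07 ± 0.11 (adjusted p = 0.669).

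**Figure D2:**
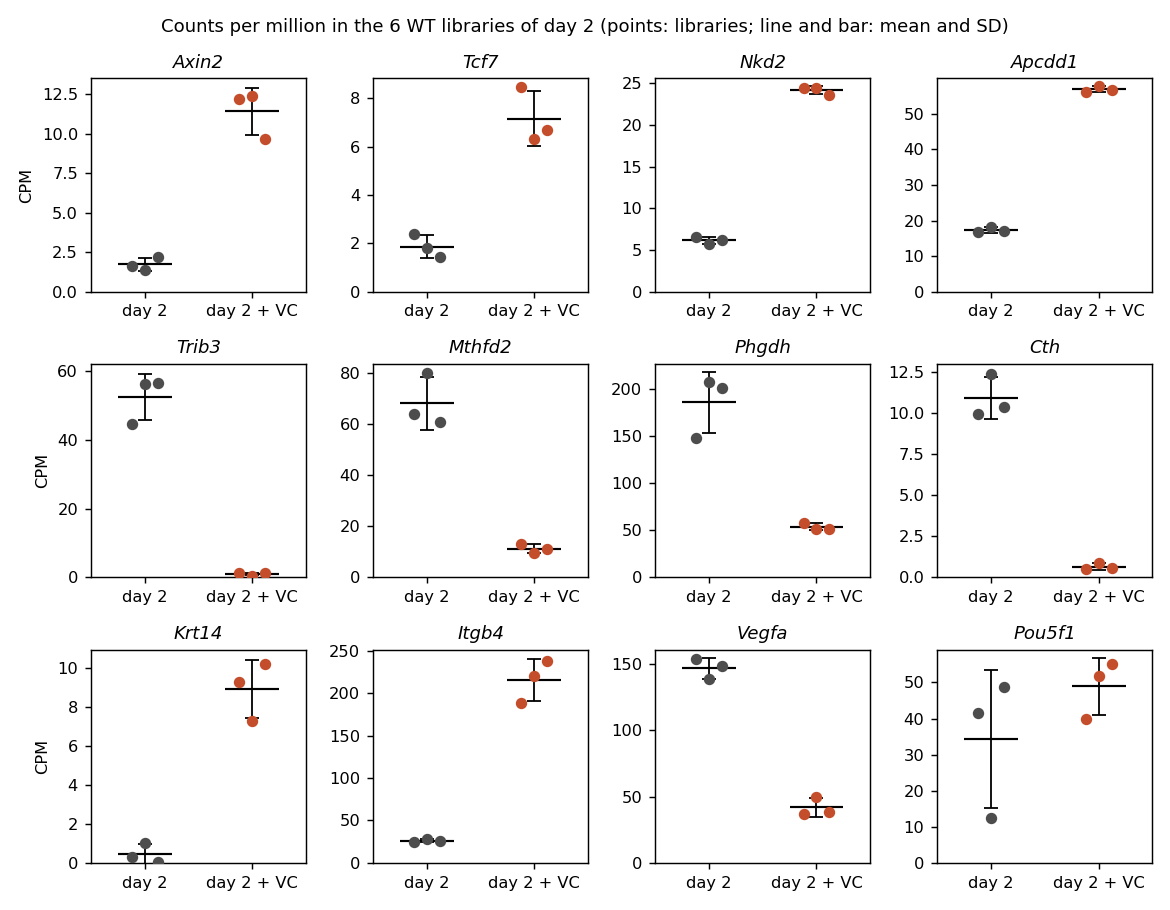
Normalised CPM of 12 genes in the 3 day 2 libraries without VC and the 3 with VC, 1 point per library with the group mean and SD (vertical axes in CPM, a scale of its own in each panel). In every panel but that of Pou5f1 the groups do not overlap: Axin2, Tcf7, Nkd2, Apcdd1, Krt14 and Itgb4 are higher with VC and Trib3, Mthfd2, Phgdh, Cth and Vegfa lower.

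Of the 36 lists, the one with the highest share of calls was that of the ATF4 response and the synthesis of serine and folate-linked carbon units, a programme that cells switch on when amino acids are short or proteins misfold in the endoplasmic reticulum. Of its 15 genes, all tested, 14 fell and none rose, with a median of -1.80 (log2). All 15 were lower in every VC library than in any library without VC, as 18.8% of all tested genes were. Single genes of this list were named after their values were seen. Trib3 (ENSMUSG00000032715, chr2:152179342-152185952), a pseudokinase that is induced by ATF4 and restrains it, was at 44.7, 56.2 and 56.4 CPM without VC and at 1.17, 0.495 and 1.16 CPM with it. It fell by 5.81 ± 0.37 on the log2 scale (56.2-fold, adjusted p = 2.09e-14), the largest difference among the genes that averaged at least 5 CPM in one of the groups. Ddit3 (CHOP), a stress transcription factor, went from 36.9, 57.4 and 36.8 CPM to 8.64, 10 and 8.21 CPM (-2.28 ± 0.22, adjusted p = 8.99e-10). Atf4 itself fell less, from 244, 329 and 243 CPM to 155, 136 and 98.7 CPM (-1.07 ± 0.19, adjusted p = 7.23e-05). Chac1, which degrades glutathione, fell by 2.04 ± 0.39.

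The enzymes and transporters of the list were lower throughout. Mthfd2, a mitochondrial folate enzyme, was at 63.6, 79.8 and 60.6 CPM and 13.1, 9.46 and 11.1 CPM with VC (-2.60 ± 0.15, adjusted p = 1.89e-15). Phgdh, the first enzyme of serine synthesis, was at 149, 208 and 202 CPM and 58.2, 51.2 and 51.8 CPM (-1.79 ± 0.13, adjusted p = 3.17e-13). The next enzymes on that path, Psat1 and Psph, fell by 0.86 ± 0.14 and 1.75 ± 0.17. Cth (ENSMUSG00000028179, chr3:157599885-157630714), which makes cysteine from cystathionine, went from 9.97, 12.4 and 10.4 CPM to 0.49, 0.88 and 0.547 CPM, a fall of 16.7-fold (-4.06 ± 0.23, adjusted p = 1.93e-15). Asns, asparagine synthetase, fell by 1.32 ± 0.12, Aldh1l2, a mitochondrial folate dehydrogenase, by 2.47 ± 0.20, and the transporters Slc7a5 and Slc7a11, for large neutral amino acids and for cystine, by 1.79 ± 0.13 and 2.09 ± 0.25. Shmt2 passed the test at -0.37 ± 0.11 (adjusted p = 0.0138) but not without day 2 replicate 2 (-0.296). Sesn2, a stress-induced regulator of mTORC1, was at 117, 121 and 114 CPM and 95.8, 104 and 113 CPM (-0.16 ± 0.14, adjusted p = 0.414). The count of fallen genes was 13 without day 2 replicate 2 and 14 without any other of the 6 libraries.

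ATF4 binds DNA with C/EBP partners at elements that contain TGATGNAA, so the start-site windows of the list were read for that motif on either strand (TTNCATCA on the other). Windows of 300 bases, 250 before to 50 after the start, came from RefSeq's table (build GRCm38.p6) for 12 of the 15 genes, and Aldh1l2, Slc7a5 and Cth had none. The motif was in the windows of Trib3, Chac1, Asns and Slc7a11. Of all genes with a window 4.51% had it in at least 1, and of all 32851 windows 1304 (3.97%) held it, and a match is a description of the letters only. These 4 are shown because they carry the motif and fell with VC, with the motif in capitals, 5′ to 3′ on the strand of the gene. Coordinates are on GRCm39, where each stretch was matched once in its chromosome. Asns (chr6:7693210-7693459, minus strand) has the motif beginning 23 bases before the start, Chac1 (chr2:119181473-119181722, plus strand) 193 bases before, and Slc7a11 (chr3:50398063-50398312, minus strand) has 2 copies, beginning 66 and 47 bases before. In Trib3 (chr2:152185948-152185977, minus strand) it begins at base 15 after the RefSeq start, and 30 bases around it are given. That start lies upstream of the gene's start in the coordinates deposited with the counts (152185952).
Trib3: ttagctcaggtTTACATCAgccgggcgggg
Chac1: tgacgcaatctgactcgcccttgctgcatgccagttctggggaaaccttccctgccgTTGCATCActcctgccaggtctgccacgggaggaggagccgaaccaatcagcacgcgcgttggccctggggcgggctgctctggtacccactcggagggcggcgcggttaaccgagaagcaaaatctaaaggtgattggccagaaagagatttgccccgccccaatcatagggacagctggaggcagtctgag
Asns: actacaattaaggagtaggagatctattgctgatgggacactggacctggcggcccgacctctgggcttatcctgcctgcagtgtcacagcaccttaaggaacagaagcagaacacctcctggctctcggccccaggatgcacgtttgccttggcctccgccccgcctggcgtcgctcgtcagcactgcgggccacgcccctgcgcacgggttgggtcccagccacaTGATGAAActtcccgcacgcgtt
Slc7a11: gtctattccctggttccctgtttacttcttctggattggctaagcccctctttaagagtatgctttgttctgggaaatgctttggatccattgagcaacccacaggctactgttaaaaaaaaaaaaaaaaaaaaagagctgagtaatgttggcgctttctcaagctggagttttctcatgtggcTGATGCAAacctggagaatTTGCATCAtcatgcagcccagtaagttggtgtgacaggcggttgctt

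**Figure D3:**
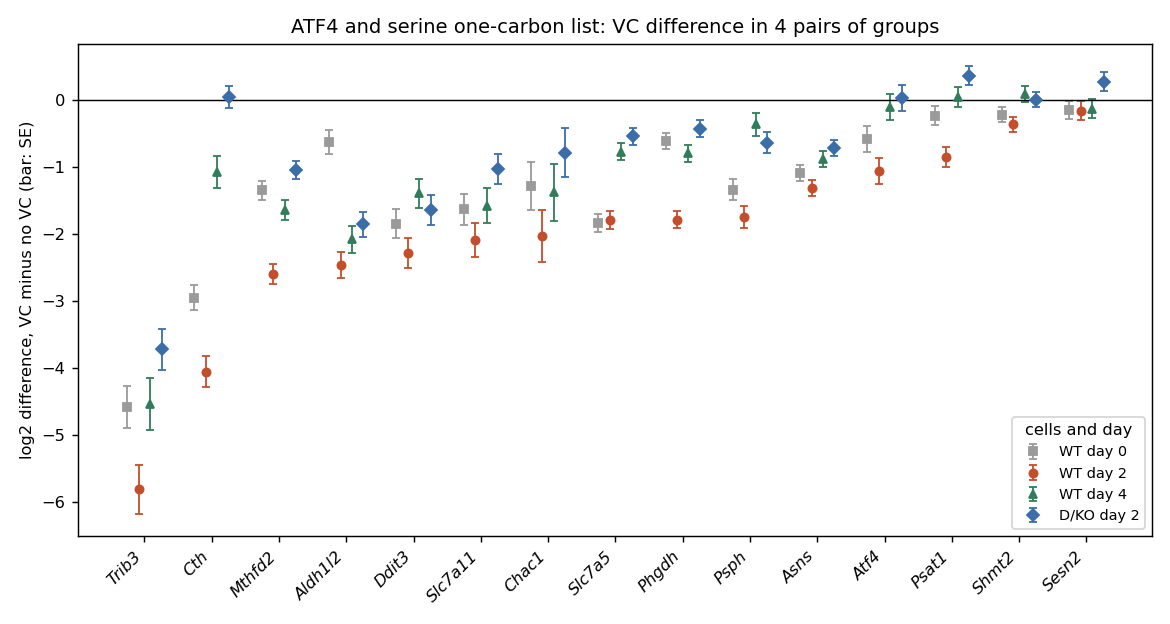
Log2 difference of VC over no VC (vertical axis, ± SE) for the 15 genes of the ATF4 and serine list in WT cells at days 0, 2 and 4 and in D/KO cells at day 2. At day 2 in WT cells all 15 lie below 0, from -5.81 (Trib3) to -0.16 (Sesn2), while in D/KO cells Cth (0.03) and Atf4 (0.03) lie at 0. At day 0 in WT cells 12 of 15 were called lower, with Trib3 at -4.59.

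Of 25 genes of the hypoxia response and glycolysis, 11 fell and 1 rose with VC, with a median of -0.34, or -0.227 without day 2 replicate 2. Among all genes 13.0% were called lower and 13.5% higher. Vegfa (ENSMUSG00000023951, chr17:46327919-46343295), the endothelial growth factor, was at 154, 138 and 148 CPM without VC and 37, 49.7 and 38.6 CPM with it, a fall of 3.51-fold (-1.81 ± 0.14, adjusted p = 6.28e-12). Bnip3, a mitophagy receptor, went from 114, 134 and 102 CPM to 41.7, 44.5 and 40 CPM (-1.48 ± 0.20, adjusted p = 6.19e-07). Ankrd37, Ero1a, an oxidase of the endoplasmic reticulum, Adm, adrenomedullin, and Ndrg1 fell by 2.15 ± 0.46, 1.03 ± 0.13, 0.93 ± 0.19 and 0.91 ± 0.12. The glycolytic enzymes moved less. Pgk1 and Ldha fell by 0.52 ± 0.15 and 0.44 ± 0.15, while Pkm, the last enzyme of glycolysis, was the 1 that rose (0.38 ± 0.14, adjusted p = 0.0361), a call that 4 of the 6 libraries each decide, and 2 rose without day 2 replicate 2. Slc2a3, which carries glucose and oxidised ascorbate, was higher (8.24, 7.71 and 7.37 CPM against 19.1, 20.2 and 20.9 CPM, 1.37 ± 0.17), and Slc2a1, the other such transporter, lower (-0.54 ± 0.15).

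Among the enzymes that use ascorbate, the HIF hydroxylases were listed with ascorbate transporters. Of these 10 genes 2 rose and 3 fell, beside 26.6% of all genes called. Their median was -0.33, or -0.118 in a fit of the groups compared alone. The HIF prolyl hydroxylases Egln1 and Egln3, themselves HIF targets, went from 173, 182 and 210 CPM to 106, 95.9 and 99.2 CPM (-0.91 ± 0.11) and from 13.2, 11.4 and 11.2 CPM to 3.74, 5.44 and 4.93 CPM (-1.34 ± 0.20). Among 14 collagen hydroxylases and partners, 1 rose and 3 fell (median -0.11), a share of calls near the 26.6% of all genes. P4ha1, the main catalytic subunit of prolyl 4-hydroxylase, was at 557, 557 and 567 CPM and 354, 328 and 346 CPM with VC (-0.71 ± 0.09, adjusted p = 1.95e-07). P4ha2 fell by 1.28 ± 0.14 and Plod2, a lysyl hydroxylase, by 0.62 ± 0.17, whereas P4ha3 rose by 0.94 ± 0.13. Of 8 Tet enzymes and DNA methyltransferases with their partners, only Uhrf1 passed the test (0.48 ± 0.18, adjusted p = 0.0481), and lost the call without any 1 of the 6 libraries. Tet1, Tet2 and Tet3 differed by 0.24 ± 0.37, -0.31 ± 0.35 and -0.16 ± 0.16, with overlapping groups. Of 20 JmjC histone demethylases, 3 rose (Phf8 and, with calls that single libraries decide, Riox2 and Kdm5c) and Jmjd6 fell (-0.82 ± 0.15), with a median of 0.00. These 4 calls of 20 stand beside 26.6% of all genes. Without VC replicate 3, 1 rose, and without day 2 replicate 2, 2 fell.

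More collagens and fibroblast genes passed the test as higher than as lower. Of 21 collagen chains, 9 rose and 2 fell (median 0.33, or 0.19 without day 2 replicate 2), and of 16 fibroblast identity genes 11 rose and 1 fell (median 0.59). Among all genes 13.5% were called higher and 13.0% lower. Col4a2, a basement membrane collagen, was at 939, 884 and 1125 CPM without VC and 2088, 2066 and 2372 CPM with it (1.15 ± 0.12, adjusted p = 2.04e-09). Col6a1 and Col6a2, chains of microfibrillar collagen, rose by 0.85 ± 0.11 and 0.82 ± 0.10. Col1a1, at 12840, 12740 and 20430 CPM and 32080, 27960 and 35160 CPM with VC, rose by 1.05 ± 0.16, and its locus carries the cassette. Col8a2 went the other way, from 17.1, 15.9 and 17.9 CPM to 3.68, 3.3 and 3.22 CPM (-2.32 ± 0.28, adjusted p = 6.07e-08). Lum, the proteoglycan lumican, was at 270, 262 and 200 CPM and 640, 573 and 531 CPM (1.25 ± 0.13, adjusted p = 3.83e-09). Fap, a surface protease of activated fibroblasts, rose by 1.24 ± 0.17, Fbln1 by 0.89 ± 0.12 and Vim, vimentin, by 0.79 ± 0.13. S100a4 is the 1 counted as fallen (-0.83 ± 0.32, adjusted p = 0.047), and was not called without any 1 of 4 libraries. Of 14 lysyl oxidases, which crosslink the matrix, and elastic fibre genes, 4 rose and 3 fell (median 0.05), beside 26.6% of all genes called. Lox fell by 0.54 ± 0.12, and Fbn2, a fibrillin, rose by 1.35 ± 0.19. Of 15 matrix metalloproteinases and inhibitors 2 rose (1 without day 2 replicate 3) and 3 fell (median 0.04), 5 calls of 15 beside 26.6% of all genes, with Mmp2, a gelatinase, higher by 0.89 ± 0.12 and Mmp11 lower (-1.67 ± 0.15).

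More contractile genes fell than rose: 7 of 13 fell and 1, Des, rose (median -0.42), beside 13.0% and 13.5% of all genes. Tpm1, a tropomyosin, went from 424, 415 and 387 CPM to 231, 217 and 207 CPM (-0.90 ± 0.09, adjusted p = 1.5e-09). Acta2, smooth muscle actin, was at 111, 127 and 83.7 CPM and 70.3, 48.2 and 58.6 CPM with VC (-0.86 ± 0.17, adjusted p = 0.000146). Myl9, a myosin light chain, and Tagln, at no more than 2.48 CPM, fell by 1.27 ± 0.16 and 1.70 ± 0.41. Of 15 TGFb targets, 2 rose and 3 fell (median -0.22), with no stable direction: the median was 0.02 without day 2 replicate 1 and -0.02 without VC replicate 3, and 5 fell without day 2 replicate 2 but 1 without VC replicate 3. The share called among all genes was 26.6%, for this list and the next. Tgfbi rose by 0.97 ± 0.09 and Ltbp2 fell by 0.59 ± 0.14. Of 11 EMT transcription factors and mesenchymal cadherins, 3 rose, Prrx1 (0.73 ± 0.10), Twist1 (0.46 ± 0.12) and Foxc2, and Twist2 fell, the calls of Foxc2 and Twist2 being lost without either of 2 libraries. Snai2 overlapped between the groups (-0.02 ± 0.11).

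Epithelial junction genes moved both ways, with 6 of 16 tested rising and 3 falling, beside 13.5% and 13.0% of all genes. The median, 0.72, was 0.25 without VC replicate 1. Another 14, Epcam among them, were too low to test (at most 0.539 CPM). Dsp, desmoplakin of desmosomes, was at 31.2, 24.6 and 32.3 CPM and 63.6, 73.9 and 71.3 CPM with VC (1.25 ± 0.17, adjusted p = 1.22e-06). Pkp1, a plaque protein, went from 0.377, 1.34 and 1.32 CPM to 5.15, 4.57 and 3.47 CPM (2.11 ± 0.32). Grhl3, a transcription factor of surface epithelium, was near 0 without VC (0.162, 0.154 and 0.055 CPM) and at 1.72, 1.93 and 1.76 CPM with it, and Trp63 rose by 1.75 ± 0.40. Cdh1, E-cadherin, stayed at 0.275 CPM or less in all 6 libraries (-2.13 ± 0.89, adjusted p = 0.0749). Cdh3, P-cadherin, fell from 25.1, 22.3 and 19.8 CPM to 5.89, 5.88 and 4.62 CPM (-2.03 ± 0.22, adjusted p = 6.42e-09), and Cldn1, a tight junction claudin, by 1.67 ± 0.24.

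Of 14 keratins 3 rose and 1 fell, a share of calls near the 26.6% of all genes. The median of -0.09 was 0.27 without day 2 replicate 3, and 2 fell without VC replicate 3. Krt14, a basal keratin, was at 0.323, 1.03 and 0.055 CPM without VC and 9.32, 7.31 and 10.2 CPM with it (4.20 ± 0.36, adjusted p = 2.35e-10), while its usual partner Krt5 was at 0.33 CPM or less throughout. Krt19, a keratin of simple epithelium, was at 16.7, 28.1 and 24 CPM and 4.29, 4.29 and 4.38 CPM (-2.41 ± 0.22, adjusted p = 1.15e-10). Krt8 and Krt16, below 2 CPM, rose with calls that single libraries decide, and 1 keratin rose without day 2 replicate 3, VC replicate 1 or VC replicate 3. Among cornified envelope genes, 2 rose and 2 fell of 10, beside 26.6% of all genes called. Without any 1 of the libraries except day 2 replicate 2, only 1 rose, Sbsn losing its call. Tgm1, a transglutaminase, rose by 2.31 ± 0.25 and Cdsn, corneodesmosin, fell from 31.7, 29.4 and 22.2 CPM to 2.39, 3.19 and 2.98 CPM (-3.28 ± 0.24, adjusted p = 9.94e-13).

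More proliferation genes passed the test as higher than as lower. Among all genes 13.5% were called higher and 13.0% lower. Of 25 mitosis genes 17 rose and none fell (median 0.76), and of 25 replication genes 12 rose and 1 fell (median 0.54). The latter, Mcm7 (-0.33 ± 0.12, adjusted p = 0.0441), was not called without any 1 of 4 libraries, while without day 2 replicate 1 a further gene, E2f1, was called lower (-0.312). Without day 2 replicate 3, 11 mitosis genes rose. Top2a, topoisomerase II alpha, was at 12.6, 13.7 and 12.4 CPM and 29, 26.6 and 26.9 CPM with VC (1.09 ± 0.16, adjusted p = 1.85e-06). Plk1 and Kif11, a kinase and a motor of the spindle, rose by 1.38 ± 0.21 and 1.33 ± 0.24, and Mcm3 and Mcm6, subunits of the replicative helicase, by 1.22 ± 0.16 and 1.10 ± 0.15. Cdkn1a, the Cdk inhibitor p21, was higher as well, at 729, 757 and 740 CPM against 439, 472 and 430 CPM (0.73 ± 0.10, adjusted p = 7.12e-07), and Cdkn1b, p27, lower (-0.64 ± 0.13). Ribosome biogenesis genes rose in 11 of 22 cases with none falling (median 0.32). Npm1, nucleophosmin, was at 432, 568 and 493 CPM and 878, 773 and 911 CPM (0.78 ± 0.11, adjusted p = 9.84e-07), and Polr1a and Polr1b, the large subunits of RNA polymerase I, rose by 0.75 ± 0.11 and 0.90 ± 0.13.

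Genes of DNA repair were the subject of the study. Of 20 nucleotide excision repair genes 3 rose and 2 fell (median -0.04), and of 26 homologous recombination and Fanconi genes 3 rose and 2 fell (median 0.25), that is 5 of 20 and 5 of 26 beside 26.6% of all genes. In the first list 1 rose without day 2 replicate 1 or VC replicate 3 and 1 fell without day 2 replicate 2 or VC replicate 1 or 3, and in the second 1 fell without day 2 replicate 2 or 3 or VC replicate 2 or 3. Usp1, which deubiquitinates the Fanconi complex, was at 94.9, 89.1 and 103 CPM and 150, 140 and 154 CPM with VC (0.63 ± 0.09, adjusted p = 3.61e-06). Brca1 went from 1.24, 1.34 and 1.54 CPM to 3.92, 3.69 and 2.43 CPM (1.28 ± 0.26, adjusted p = 0.000301). Rad23b, a damage recognition partner, rose by 0.36 ± 0.08, and Ddb2, another, passed the test at -1.06 ± 0.33, which it did not without VC replicate 3.

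**Figure D4:**
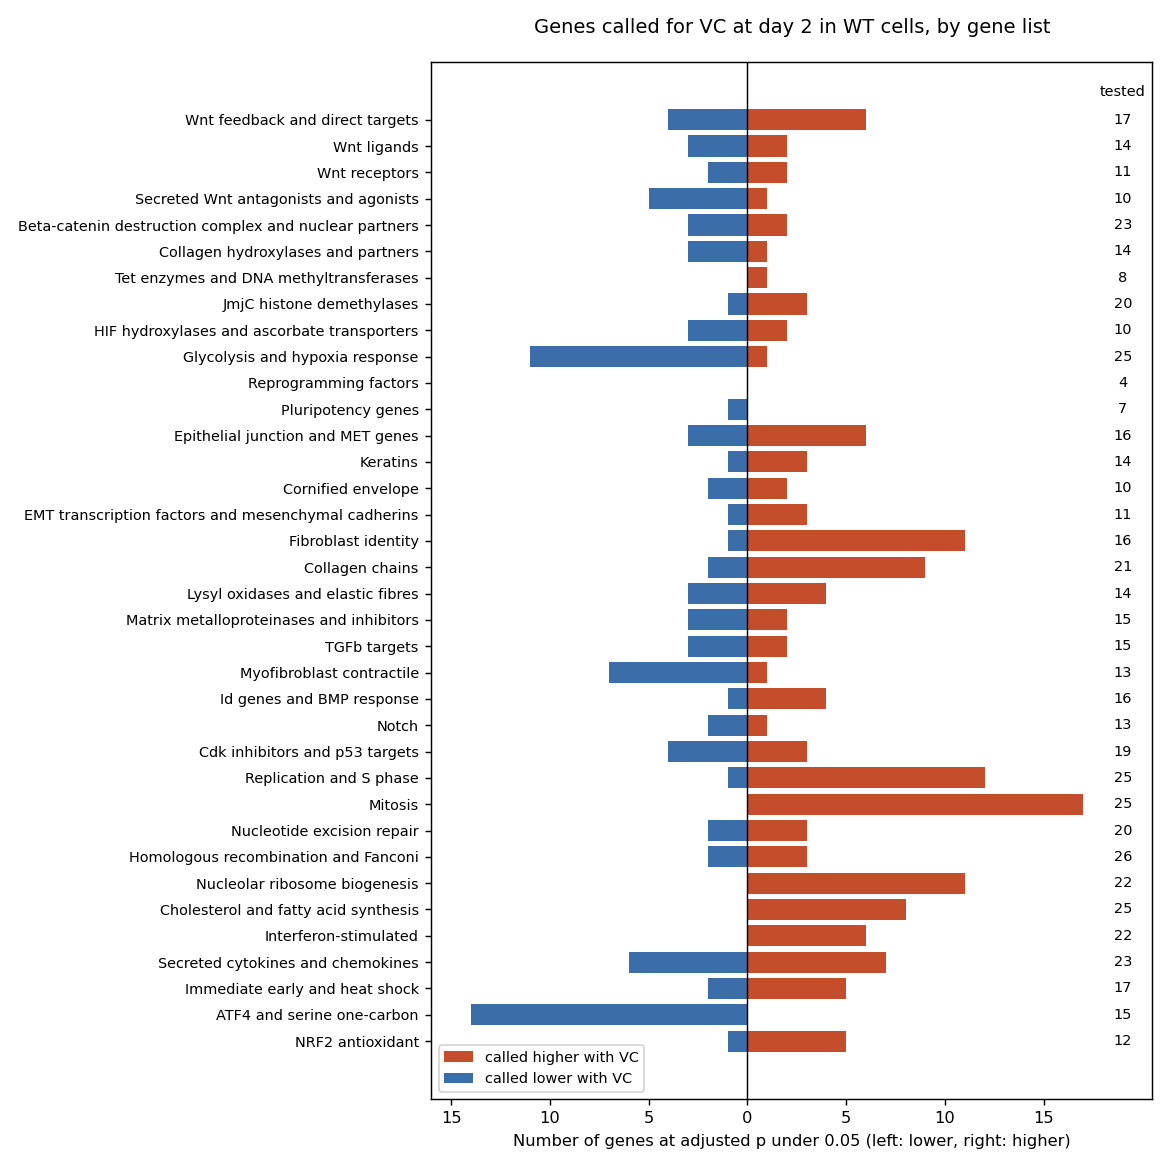
Number of genes called higher (right) and lower (left) with VC at day 2 in WT cells for each of the 36 gene lists, with the number tested at the right edge. The ATF4 and serine list has 14 of 15 genes lower and none higher, and the mitosis list 17 of 25 higher and none lower.

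Some genes of antioxidant defence, lipid synthesis and other signals passed the test as well. Of 12 NRF2 targets 5 rose and 1, Slc7a11, fell, beside 13.5% and 13.0% of all genes. Nqo1, a quinone reductase, went from 28.9, 29.1 and 19.3 CPM to 67.5, 62.5 and 63.1 CPM (1.32 ± 0.17, adjusted p = 4.14e-07), and the glutathione transferase Gsta4 rose by 0.84 ± 0.15. Of 25 cholesterol and fatty acid genes 8 rose and none fell, beside 26.6% of all genes called, and 1 fell without VC replicate 1 or with the 18 WT libraries alone. Among those that rose were Fasn, fatty acid synthase, at 0.71 ± 0.12 and Srebf2, its pathway's regulator for sterols, at 0.52 ± 0.09. Egr1, an immediate early factor, went from 426, 464 and 450 CPM to 959, 933 and 798 CPM (1.01 ± 0.19, adjusted p = 0.000107). The Notch target Hey2 fell by 1.89 ± 0.26, and Bmp4 rose by 0.99 ± 0.17.

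Secreted factors went both ways, 7 of 23 rising and 6 falling, beside 13.5% and 13.0% of all genes. Ccl8, a chemokine, was at 28.3, 33.9 and 25 CPM and 138, 97.4 and 83.7 CPM with VC (1.87 ± 0.19, adjusted p = 2.99e-09). Ptgs2, cyclooxygenase-2, and Igfbp2, an IGF-binding protein, rose by 1.62 ± 0.18 and 1.86 ± 0.23. Ccl2, Hgf and Cxcl12 fell by 1.24 ± 0.23, 1.13 ± 0.20 and 0.75 ± 0.15. Interferon-stimulated genes gave 6 of 22 higher and none lower (median 1.03), beside 26.6% of all genes called, but this rested on VC replicate 3: without it 1 rose and the median was 0.433. Without day 2 replicate 3 the count was 3, and without VC replicate 2 it was 10. Ifit1 shows the spread, at 18.3, 4.95 and 49.3 CPM in the VC libraries against 7.76, 8.22 and 5.78 CPM, which overlap. In the day 0 libraries of WT cells, VC raised all 22 interferon-stimulated genes tested (median 2.54). At day 4 it raised 1 and lowered 1 (median 0.214), and in D/KO cells at day 2 it raised 3 and lowered 1 (median 0.554).

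The largest differences of all lay outside these lists in many cases. Fetub, a secreted cystatin-like protein, was at 0.162, 0.257 and 0.55 CPM without VC and 10.8, 8.74 and 9.24 CPM with it (4.87 ± 0.32, adjusted p = 6.59e-14). Aldh3a1, an aldehyde dehydrogenase, was far more abundant and rose 14.3-fold, from 67.7, 100 and 62.4 CPM to 1184, 978 and 1130 CPM (3.84 ± 0.18, adjusted p = 1.6e-17). Itgb4 (ENSMUSG00000020758, chr11:115865535-115899238), the integrin subunit of hemidesmosomes, was at 25.1, 28.2 and 25.6 CPM and 189, 220 and 238 CPM (3.03 ± 0.14, adjusted p = 1.25e-17). The secreted or surface proteins Lbp and Msln, a lipopolysaccharide-binding protein and mesothelin, rose by 2.68 ± 0.15 and 2.87 ± 0.19, and L1td1, a gene of embryonic stem cells, by 4.64 ± 0.37 from at most 0.36 CPM. Among the genes that fell most, Ccdc3, a secreted protein, went from 146, 120 and 162 CPM to 12.4, 13.2 and 14 CPM (-3.43 ± 0.15, adjusted p = 1.01e-18). Trim66, a chromatin reader, fell by 5.12 ± 0.30, Rgs11, a regulator of G protein signalling, by 4.41 ± 0.52, Chd5, a chromatin remodeller, by 3.74 ± 0.29 and Adm2 by 3.42 ± 0.31. Of the 24 genes with the largest changes, 12 in each direction, and the 12 with the smallest p-values, none lost its call in an alternative that tested it. Those with low counts in either group, Fetub, L1td1, Krt14, Mal and Rgs11 among them, were not tested where at least 10 counts in every library were required.

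Each of the other VC comparisons has its own libraries, while all 3 differences between comparisons use the 6 libraries described here. At day 0, before doxycycline, VC raised 15.1% and lowered 14.4% of genes. Of the genes raised at day 2, 1123 were also raised at day 0 (52.5% of those at day 2 and 47.1% of those at day 0), and 1183 were lowered at both (57.3% and 52.0%), while 67 raised and 29 lowered at day 2 went the opposite way. The difference itself passed the test for 5.52% of genes (403 genes, or 2.55%, with a higher and 471, or 2.97%, with a lower effect at day 2). Of the mitosis genes 14 of 25 had a lower effect at day 2 than at day 0, and the list's median at day 0 was 1.90. Top2a rose by 2.02 at day 0 and 1.09 at day 2 (day 2 minus day 0 -0.93 ± 0.22, adjusted p = 0.00693). Axin2 also rose more at day 0, from a mean of 1.3 to 25.2 CPM (day 2 minus day 0 -1.54 ± 0.39, adjusted p = 0.0124). In the ATF4 and serine list, 12 of 15 fell at day 0 too and none rose (median -1.30), and 4 had a lower effect at day 2. Trib3 fell by 4.59 at day 0, and its difference between the days was not past the threshold (adjusted p = 0.181). Mthfd2 fell by 1.36 at day 0 (day 2 minus day 0 -1.25 ± 0.20, adjusted p = 5.15e-05). Of 14 collagen hydroxylases and partners 7 had a lower effect at day 2, P4ha1 and P4ha2 among them (-0.51 ± 0.13 and -0.97 ± 0.19). The opposite held for Itgb4 and Lbp, at means of 8.21 and 20.8 CPM at day 0 and 7.65 and 14.9 CPM with VC there (day 2 minus day 0 3.13 ± 0.21, adjusted p = 6.56e-13, and 3.16 ± 0.21, adjusted p = 5.25e-13). Npm1 was at means of 397 and 396 CPM at day 0, and the difference was 0.78 ± 0.15 (adjusted p = 0.000867).

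At day 4, VC raised 12% and lowered 10.4% of genes. Of those raised at day 2, 992 were raised at day 4 too (46.4% of the day 2 and 52.3% of the day 4 genes), and 827 were lowered at both (40.0% and 50.3%). The difference between the days passed the test for 6.13% of genes (2.95% with a higher effect at day 4 and 3.18% with a lower one). Vegfa, lowered at days 0 and 2, had means of 110 and 111 CPM at day 4 (day 4 minus day 2 1.83 ± 0.20, adjusted p = 1.19e-07). Nkd2 had means of 12.1 and 13.7 CPM at day 4, so its rise at day 2 was larger (day 4 minus day 2 -1.80 ± 0.37, adjusted p = 0.00232), while Axin2 and Apcdd1 rose at both days with no difference past the threshold (0.79 ± 0.39, adjusted p = 0.226, and 0.38 ± 0.17, adjusted p = 0.177). Cholesterol and fatty acid genes, of which 8 rose at day 2, gave none higher and 13 lower at day 4, and the effect at day 4 was the lower one for 11 of 25. In the ATF4 and serine list, 10 of 15 fell at day 4 (median -0.89), and 7 had a smaller fall than at day 2, Slc7a5 (1.02 ± 0.18, adjusted p = 0.000487) and Phgdh (0.99 ± 0.18, adjusted p = 0.000485) among them. Without VC, Phgdh had means of 186 CPM at day 2 and 69.9 CPM at day 4.

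In D/KO cells at day 2, VC raised 11.1% and lowered 14.2% of genes. Of the genes raised in WT cells, 803 were raised in D/KO cells (37.5% of the WT and 45.8% of the D/KO genes), and 843 were lowered in both (40.8% and 37.4%). The opposite way went 119 genes raised and 38 lowered in WT cells. The difference between the lines passed the test for 10.9% of genes. The ATF4 and serine list had fewer genes lowered in D/KO cells (9 of 15, median -0.64), and for 10 of its genes the effect was lower in WT cells past the threshold, beside 4.03% of all genes. Cth had means in D/KO cells of 13.8 and 14.1 CPM (WT minus D/KO -4.10 ± 0.29, adjusted p = 2.78e-12), and Atf4 had means of 153 and 156 CPM there (-1.09 ± 0.27, adjusted p = 0.00701). Of 21 collagen chains 11 had a higher effect in WT cells, beside 6.86% of all genes. Col4a2 had means of 2583 and 2151 CPM in D/KO cells (WT minus D/KO 1.41 ± 0.16, adjusted p = 2.63e-07). Of the contractile genes 12 of 13 fell in D/KO cells (median -1.44), and for 6 the fall was larger there past the threshold. Acta2 had means of 299.6 and 62.2 CPM (WT minus D/KO 1.41 ± 0.23, adjusted p = 7.78e-05). Of 13 Notch genes 9 were lowered in D/KO cells and for 7 the effect was higher in WT cells past the threshold. In WT cells 1 rose (0 without day 2 replicate 2 or 3 or VC replicate 2) and 2 fell (1 without day 2 replicate 1 or 3 or VC replicate 1 or 2). Of all genes 26.6% were called in WT cells. Axin2, Apcdd1 and Tcf7 rose in D/KO cells too (3.33, 1.91 and 1.95), and for Axin2 and Apcdd1 the lines did not differ past the threshold (-0.62 ± 0.41, adjusted p = 0.373, and -0.19 ± 0.17, adjusted p = 0.512). Over the 4 VC comparisons, 332 genes rose in every one and 438 fell in every one.

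**Figure D5:**
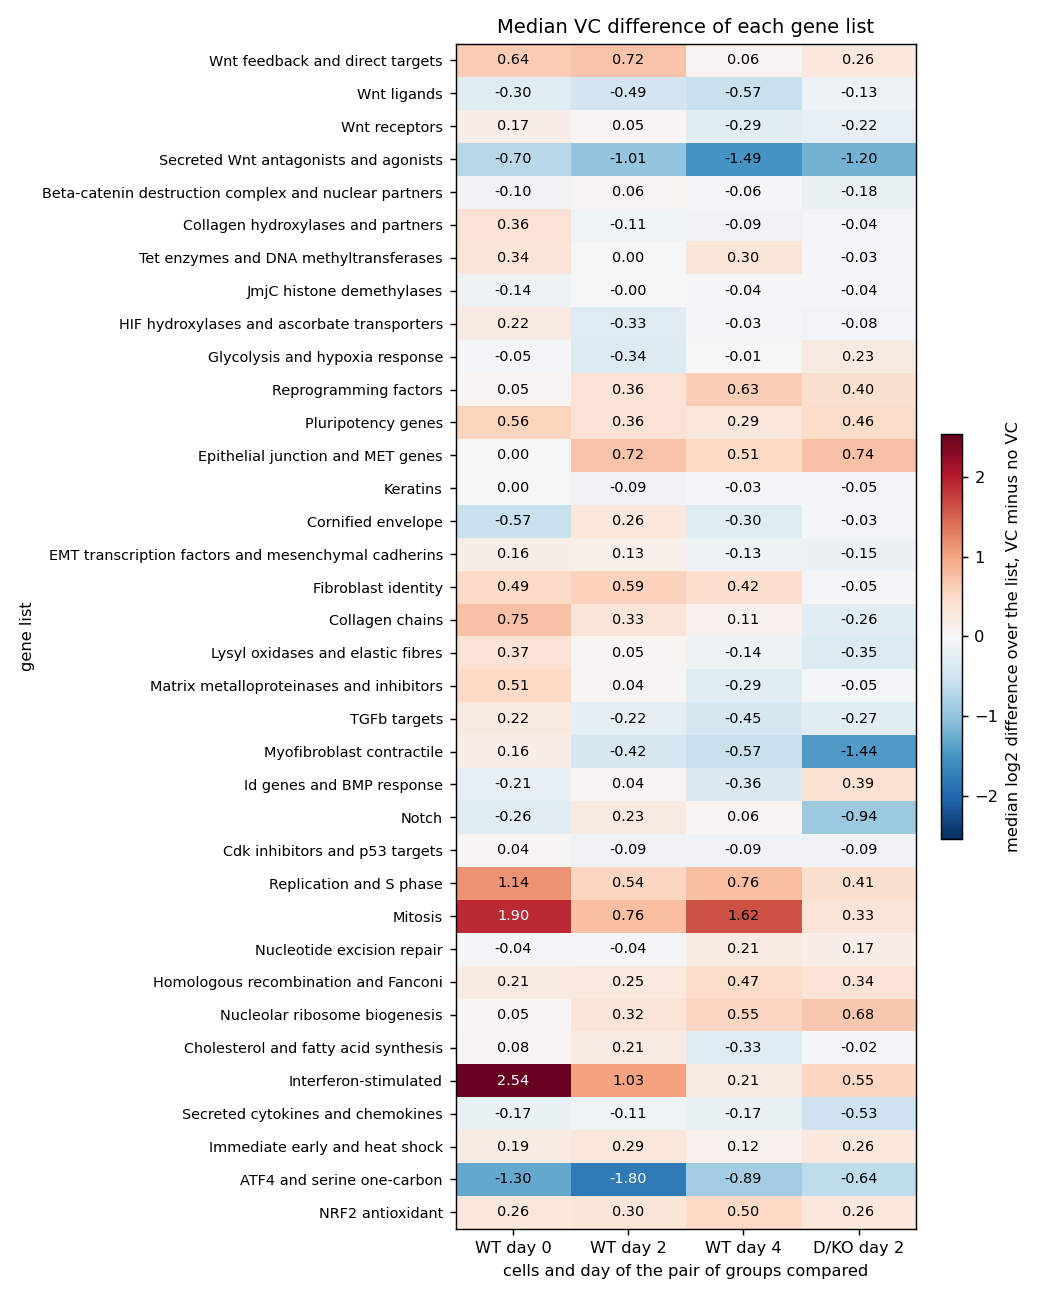
Median log2 difference of VC over no VC for each of the 36 gene lists (rows) in WT cells at days 0, 2 and 4 and in D/KO cells at day 2 (columns), with colour and printed value on the same log2 scale. At day 2 in WT cells the ATF4 and serine list has the lowest median (-1.80) and the interferon list the highest (1.03, or 0.433 without VC replicate 3), and the collagen chains change sign between WT (0.33) and D/KO cells (-0.26).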

How the data were processed

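RNA was sequenced as paired-end reads on an Illumina NovaSeq. The authors deposited a table of unnormalised read counts for each gene, obtained with FastQC, Trim Galore, HISAT2 alignment to GRCm39 and featureCounts of the Subread package. Tool versions, strandedness, the annotation release and the treatment of reads that map to several places are not given in the sources used here, so counts of overlapping genes are uncertain. The authors tested genes with DESeq2. The reprogramming table holds 36 libraries, all used in the fit, and 56980 gene identifiers. Of these, 56236 (98.7%, with 99.97% of the counts) were found in GENCODE M39, the source of symbols. Gene coordinates are those deposited with the counts. Of the identifiers found, 60.6% had the same start and end in both sources. The table of inhibitor-treated cells was not used.

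In R 4.3.3, edgeR 4.0.16 scaled the counts by TMM (factors 0.773 to 1.1), filterByExpr (minimum count 10, minimum total 15) kept 15832 genes, and a quasi-likelihood fit with 1 coefficient per group and 24 residual degrees of freedom (common biological coefficient of variation 0.132) gave two-sided F tests with Benjamini-Hochberg adjustment within each contrast. Differences between VC effects are contrasts of the same fit. Between replicates the variance was 25.9 to 43.4 times counting noise without VC and 12.0 to 19.2 times with it. This is a mean over the genes with enough counts in a pair, so it does not tell how far depth limits single genes. On simulated data with these library sizes and 200 genes changed 2-fold, 71% were recovered with 6 false calls. The simulation gave all other groups the same means and changed far fewer genes than were called here, so these rates do not carry over to the real contrast.

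Named genes are the 12 with the largest change in each direction among called genes with a mean of at least 5 CPM in one of the groups, groups that do not overlap and a symbol that is not a predicted gene, the 6 with the smallest p in each direction, the Wnt feedback genes, reprogramming factors, Ercc1 and other controls, the 3 members with the smallest p per direction of each of 36 lists, and the genes whose VC effect differed most between comparisons. The members of the ATF4 and serine list and 4 genes of the Dlk1-Dio3 region, with other members given by value, were added after their values were seen. All groups, lists and tests were chosen with earlier results of these data known. Alternatives were DESeq2 1.42.0, other size factors, other filters, fits on fewer libraries, a 2-fold limit and leaving out each library. Tables and figures used Python 3.11.15, pandas 2.3.3 and matplotlib 3.10.9.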

Additional observations from a re-analysis of the deposited data

Results flagged for a closer look

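The effect of VC at day 2 in WT cells differed, by the interaction contrasts of the edgeR fit, from that at day 0 for 874 genes, from that at day 4 for 971 genes and from that in D/KO cells at day 2 for 1724 genes. The genes below had the largest such differences (log2) in each direction among called genes, predicted genes left out, with a mean of at least 5 CPM in one of the groups of the contrast and VC groups at day 2 in WT cells that do not overlap, and all 3 contrasts use the same 6 libraries.

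Against day 0, the effect on Acsbg1, an acyl-CoA synthetase, was higher at day 2 by 5.07, that on Aldh1a3, a retinaldehyde dehydrogenase, by 4.21 and that on Igfals, a carrier protein of IGF, by 3.95. The values of Acsbg1 and Igfals rest on few counts at day 0, with means of 0.198 and 0.765 CPM without VC and 0.0421 and 0.231 CPM with it. Aldh1a3 had means of 65.2 CPM at day 0 and 1.53 CPM with VC there, against 87.1, 78.9 and 81.3 CPM and 33.2, 39.5 and 35.1 CPM at day 2, so it fell at both days. The day 2 effect was the lower one for Fcgr2b, an Fc receptor (-2.88, not called without day 0 replicate 1, at -2.53, or day 2 replicate 1, at -1.67), Aqp1, a water channel (-2.69), and Kcnk2, a potassium channel (-2.47). Aqp1 had means of 80.5 and 413 CPM at day 0, whereas at day 2 it was at 144, 152 and 137 CPM without VC and 128, 109 and 107 CPM with it.

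Day 4 minus day 2, the effect was higher for Rgs11 (3.48), the imprinted long non-coding RNA Meg3 (3.88) and Cth (2.98), which all fell more at day 2. It was lower for Comp, a cartilage matrix protein (-3.23), Sostdc1, a secreted BMP and Wnt antagonist (-3.01), and Lgi2 (-2.90). Comp went from 56.7, 61.2 and 70.9 CPM to 39.1, 43.7 and 37.2 CPM at day 2, and from a mean of 95 to 6.43 CPM at day 4.

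WT minus D/KO at day 2, the effect was lower in WT cells for Cth (-4.10), Gpr15lg (-4.45) and Cdh1 (-3.76), and higher for Sostdc1 (4.23), Gcnt3 (4.51) and Adgrl4 (4.27). The values of Gcnt3, Gpr15lg and Cdh1 rest on few counts in WT cells. Gcnt3 lost its call without any 1 of 10 libraries, and Gpr15lg without day 2 replicate 2 (-3.76) or day 2 VC replicate 3 (-4.02). Gcnt3 had no count in the 3 day 2 libraries without VC, so its fitted difference is not a bound. Cdh1 was at 0.275 CPM or less in the WT libraries, and had means of 2 and 6.16 CPM in the D/KO libraries. Adgrl4, an endothelial adhesion receptor, had means of 35.7 and 9.33 CPM in D/KO cells, against at most 0.385 CPM without and 1.26 CPM with VC in WT cells.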

How the results depend on the processing

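No paired analysis was possible because the labels give the libraries no replicate numbers, only names in accession order. The count of genes changed by VC at day 2, 4205, was 3098 to 4773 over the alternatives without a fold limit and 3098 to 3931 with 1 library left out (higher 1596 to 2012, lower 1502 to 1919). With a 2-fold limit it was 1196 (479 higher, 717 lower). For day 2 minus day 0 that limit gave 376 (195 and 181), leaving out 1 library 612 to 953 (291 to 465 higher, 317 to 488 lower), and the 18 WT libraries alone 717 lower. For day 4 minus day 2 the limit gave 364 (234 and 130), the 18 WT libraries 1520 (783 higher), the groups compared alone 710 higher and DESeq2 778 lower, and leaving out 1 library gave 476 to 1166 (204 to 563 higher, 272 to 652 lower). The libraries that moved it by over 1.5 times were day 2 replicate 2 (599), day 2 VC replicate 3 (564), day 4 replicate 1 (523) and day 4 VC replicates 2 and 3 (476 and 625), and for the higher genes also day 4 replicate 3 (310). For WT minus D/KO the limit gave 677 (407 and 270), and leaving out 1 library 1219 to 1657 (787 to 1056 higher, 432 to 601 lower). The share of its calls that were higher was 63.0%, and 51.8% with at least 10 counts in every library compared. The cause of these changes was not tested. Of the 264 named genes tested, 52 changed their call with a library left out, 41 with another setting and none reversed. Genes under about 1 CPM are limited by depth.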

Other observations

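Several genes of the imprinted Dlk1-Dio3 region of chromosome 12, noticed after the values were seen, were lower with VC at day 2. Meg3 (chr12:109506879-109538165 on GRCm39), a long non-coding RNA made from the maternal copy, was at 96.9, 64.1 and 102 CPM without VC and 1.59, 6.65 and 4.32 CPM with it (-4.37 ± 0.46, edgeR adjusted p = 5.33e-09). Rian, the next such transcript (chr12:109570242-109628150), was at 71.5, 71 and 66.6 CPM and 9.63, 13.9 and 11.9 CPM (-2.56 ± 0.17, adjusted p = 6.59e-14). Dlk1 (chr12:109418749-109429262), a paternally expressed Notch-like protein that inhibits adipogenesis, fell from 16.7, 14.4 and 21.2 CPM to 1.59, 1.65 and 1.4 CPM (-3.49 ± 0.32, adjusted p = 2.6e-10). In none of these 3 did the groups overlap. Mirg (-1.23 ± 0.55, adjusted p = 0.0972) and Rtl1 (-2.27 ± 0.92, adjusted p = 0.0648) were below 2 CPM and did not pass the test. Dio3 (chr12:110245502-110247531), a deiodinase at the far end of the region, was at 65.6, 79.6 and 54.6 CPM and 71.7, 59.5 and 57 CPM, values that overlap (-0.09 ± 0.19, adjusted p = 0.78). Meg3 and Rian hold annotated small RNA genes in their exons, so reads may be shared. At day 4, Meg3 had means of 68.4 CPM without and 48.9 CPM with VC, and the day 4 effect was the higher by 3.88 ± 0.59 (adjusted p = 6.23e-05). In D/KO cells Meg3 was low without VC as well, at a mean of 3.27 CPM.

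Xist, the RNA that coats the inactive X chromosome in female cells, was at 332, 194 and 280 CPM without VC and 44.9, 112 and 90.3 CPM with it (-1.70 ± 0.26, adjusted p = 7.44e-06), in groups that did not overlap. At day 0 it had means of 377 and 89.6 CPM, and at day 4 of 488 and 643 CPM, with a day 4 effect higher by 2.10 ± 0.36 (adjusted p = 0.000379). Ddx3y, a gene of the Y chromosome, had no count in the 6 libraries.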
